A study of Mus musculus with 12 samples.

Results

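Chemokines are small secreted proteins that direct the movement of immune cells, and the genes for them and for their receptors were followed here across 4 mouse fat depots. The members are all rows of the count table whose symbol starts with Ccl, Cxcl, Cx3cl, Xcl, Ccr, Cxcr, Cx3cr or Xcr followed by a digit, which gave 58 of 23420 genes, 38 for ligands and 20 for receptors. Of these, 42 (26 ligands and 16 receptors) had enough counts to be tested, 16 had not, and 4 of the 16 had no count in any library. RNA was sequenced from the brown pads of the interscapular (iBAT) and supraclavicular (scBAT) region and from the inguinal (iWAT) and epididymal (eWAT) white pads, with 3 libraries per depot and 12 in all. Every library came from untreated male C57BL/6 mice, 8 weeks old and kept at ambient temperature, so the groups share strain, sex, age and housing and differ in depot. The labels do not say whether the 3 libraries of a depot come from separate animals, and p-values therefore measure the spread between these samples, which may be technical. The whole tissue was extracted, with all of its cell types.

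A chemokine binds a membrane receptor that signals through inhibitory G proteins, and a cell that carries the receptor moves towards higher ligand concentration. Homeostatic ligands such as Ccl19, Ccl21 and Cxcl13 are made by the stroma of lymph nodes and spleen and place T cells, dendritic cells and B cells there through Ccr7 and Cxcr5. Inflammatory ligands such as Ccl2 recruit monocytes, neutrophils or eosinophils, and Ccl2 and its receptor Ccr2 are best known in fat for the recruitment of monocytes that become adipose tissue macrophages. The inguinal pad of the mouse surrounds a lymph node; the labels do not say how the pads were dissected.

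Sequences of the members on which the results turn were taken from the reference. The promoter windows of Cxcl13, Ccl8 and Cxcl10 (RefSeq, build GRCm38.p6) run from 250 bases before to 50 bases after the annotated start and are printed 5′ to 3′ on the strand of the gene. They are shown because Cxcl13 differed most between libraries of the same white depot, Ccl8 stood high in each inguinal library, and Cxcl10 is the textbook interferon-induced ligand. Capitals mark GGGAGATTT, the start of an NF-kB form described for this gene, in Cxcl13 (chr5:95956689-95956988, plus strand). In Cxcl10 (chr5:92348840-92349139, minus strand) they mark first a match to GAAANNGAA, a core of the interferon-stimulated response element, and then a match to GGGNNTTCC, a common NF-kB core. The Ccl8 window (chr11:82114935-82115234, plus strand) holds none of these 3 and has no capitals.
Cxcl13: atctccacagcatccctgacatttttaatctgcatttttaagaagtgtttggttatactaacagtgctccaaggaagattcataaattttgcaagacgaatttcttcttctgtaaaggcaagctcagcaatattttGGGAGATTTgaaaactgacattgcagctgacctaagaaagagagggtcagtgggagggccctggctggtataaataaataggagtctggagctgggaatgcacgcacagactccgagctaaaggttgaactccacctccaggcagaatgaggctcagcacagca
Ccl8: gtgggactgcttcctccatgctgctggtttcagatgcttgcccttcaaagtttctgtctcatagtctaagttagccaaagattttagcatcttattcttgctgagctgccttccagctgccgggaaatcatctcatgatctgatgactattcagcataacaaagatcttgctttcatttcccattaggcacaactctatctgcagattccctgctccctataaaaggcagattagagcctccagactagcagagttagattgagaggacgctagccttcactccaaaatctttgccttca
Cxcl10: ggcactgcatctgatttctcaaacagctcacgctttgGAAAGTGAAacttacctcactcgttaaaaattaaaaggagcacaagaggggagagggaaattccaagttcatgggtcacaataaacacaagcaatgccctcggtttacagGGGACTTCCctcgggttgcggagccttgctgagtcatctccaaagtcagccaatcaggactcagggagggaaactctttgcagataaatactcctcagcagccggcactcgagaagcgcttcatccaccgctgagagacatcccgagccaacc

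The 3 motifs were searched on both strands in the 42 members that have such a window, among 32851 windows of 300 bases. GGGAGATTT lies in 0.317% of all windows, in 104 of them, and among the members in Cxcl13 alone, where it begins at base 137 of the window. GAAANNGAA lies in 8.56% of all windows and in those of Ccl1, Ccl3, Ccl19, Ccr2, Cxcl9, Cxcl10, Cxcl14 and Cxcr1. GGGNNTTCC lies in 5.82% of all windows and in those of Ccl9, Ccl19, Ccl20, Ccl25, Ccr6, Cxcl9 and Cxcl10. A match describes letters in the window and shows no binding.

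The Ccl21 genes, whose products are the other ligands of Ccr7, have near-identical copies. Ccl21a and Ccl21b (GENCODE annotation of GRCm38) differ at 2 of 402 aligned coding bases, an identity of 99.5%. In a stretch of 60 coding bases, capitals mark 1 of the differing positions.
Ccl21a: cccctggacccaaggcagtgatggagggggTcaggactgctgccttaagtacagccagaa
Ccl21b: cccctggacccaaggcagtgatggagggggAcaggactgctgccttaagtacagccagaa

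Ccl21a, Ccl21b and Ccl21c were at 0 counts in all 12 libraries. Of the 50-base words in the transcripts of Ccl21a, 71.6% also occur in transcripts of other genes, and for Ccl21b all do. How reads that match several genes were counted is not given in the sources used here, and its part in these zeros was not tested. Other members with shared words were Ccl27b at 98.1%, Ccl19 at 57.2%, Ccl27a at 53.3%, Cxcl16 at 20.0% and Xcl1 at 10.8%, and no other tested member exceeded 6.68%. Levels of Ccl19 and Ccl27a are therefore uncertain to the extent that reads were dropped or split.

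Levels are in CPM, a gene's share of the counts of its library after TMM scaling, and differences are log2 differences with their standard error from edgeR's quasi-likelihood test, with Benjamini-Hochberg adjustment over 14898 tested genes and a threshold of 0.05. Total counts ran from 17159401 to 29262554 per library, and 8 residual degrees of freedom were left. The biological coefficient of variation was 12.1% in iBAT, 15.7% in scBAT, 17.6% in eWAT and 42.9% in iWAT. The summed level of 6 brown adipocyte markers was 3820 to 5010 CPM in the brown libraries and 78.6 to 347 CPM in the white ones. Libraries iWAT 1 and iWAT 3 stood apart from iWAT 2. The summed level of 10 B cell markers was 1770, 101 and 2430 CPM in iWAT libraries 1, 2 and 3, against 6.09 to 10.4 CPM in brown fat and 7.67, 9.99 and 47.5 CPM in eWAT 1, 2 and 3. That of 11 measured T cell markers was 1020, 75.2 and 1600 CPM in iWAT, 15.2 to 25.8 CPM in brown fat and 29.3 to 34.0 CPM in eWAT. Glycam1, a mucin of lymph node high endothelium, was at 121, 7.66 and 159 CPM in iWAT and at most 0.129 CPM elsewhere. In bulk tissue, more cells of a type and more RNA per cell cannot be told apart. A difference of a member between iWAT and brown fat that rests on iWAT 1 and 3 is followed by its value with iWAT 2 alone.

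As a family, chemokine and receptor genes held 401 to 438 CPM of each brown library, 896 to 941 CPM of each eWAT library and 1550, 928 and 1950 CPM of iWAT 1, 2 and 3. Library iWAT 2 lay within the eWAT range, and iWAT 1 and 3 lay above every other library. The sum over receptor genes was 96.2 to 117 CPM in brown fat, 219 to 237 CPM in eWAT and 541, 178 and 759 CPM in iWAT. The sum over ligand genes was 305 to 326 CPM in brown fat, 659 to 714 CPM in eWAT and 1010, 750.0 and 1190 CPM in iWAT.

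**Figure D1:**
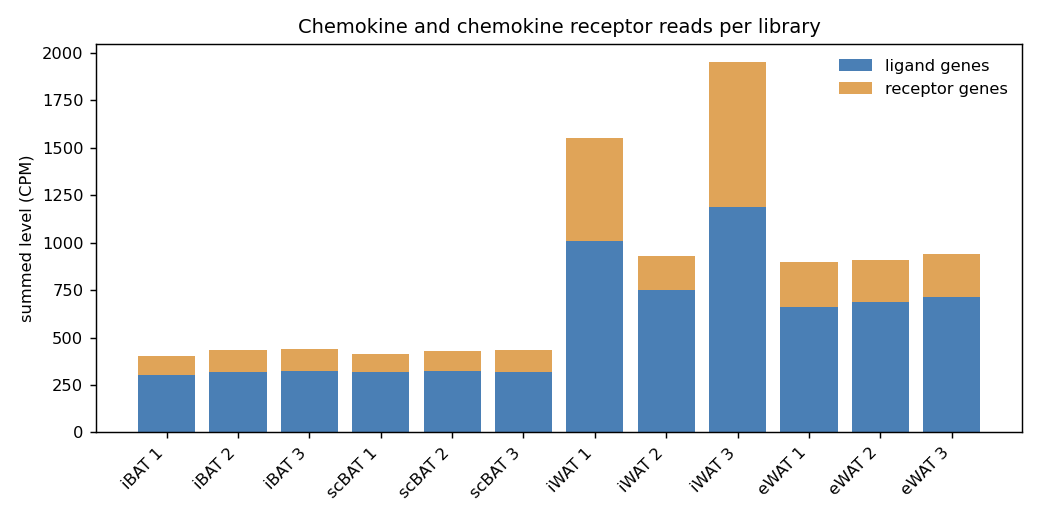
Bars give the summed level of the chemokine ligand genes (blue) and receptor genes (orange) in each of the 12 libraries, in CPM. The 6 brown libraries lie between 401 and 438 CPM, iWAT 2 is at 928 CPM beside eWAT at 896 to 941 CPM, and iWAT 1 and iWAT 3 reach 1550 and 1950 CPM.

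Against the mean of the brown depots, 33 of the 42 tested members rose in iWAT, where 37.8% of all tested genes did, and 5 fell, where 30% of all did. In eWAT, 19 rose, where 30.7% of all tested genes did, and 3 fell, where 28.4% of all did. Both comparisons use the same 6 brown libraries. The median log2 difference of the tested members was 2.73 in iWAT and 1.11 in eWAT, beside 0.12 and 0.05 for all tested genes. The low-count filter asks for its level in 3 libraries. It keeps a gene that is high in every library of a single depot. It can drop one that is high in fewer libraries, such as Ccr4 and Ccr8, which were high in iWAT 1 and 3. These counts therefore describe the 42 tested members and not all 58. Without iWAT 1 and 3, 27 of 43 tested members rose in iWAT against brown and 2 fell, beside 27.4% and 25% of all tested genes, in a fit that assumes the lone iWAT library to vary like the other depots. Of the 38 members called with all iWAT libraries, 27 kept their call. In that fit 28 rose in eWAT, beside 36.8% of all tested genes, and the medians of the 42 members were 1.27 in iWAT and 1.08 in eWAT.

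Counted by libraries that do not overlap, 29 of the 42 lay higher and 4 lower in iWAT than in all brown libraries, where 26.9% and 26.8% of all tested genes did. In eWAT 20 lay higher and 3 lower, where 34.7% and 32.2% did. The number of tested members above all 6 brown libraries was 35 in iWAT 1, 33 in iWAT 2 and 32 in iWAT 3, and 25, 28 and 25 in eWAT 1, 2 and 3. Over all tested genes the shares above every brown library were 45.3%, 38.5% and 44.7% in iWAT and 40.1% to 41.5% in eWAT.

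**Figure D2:**
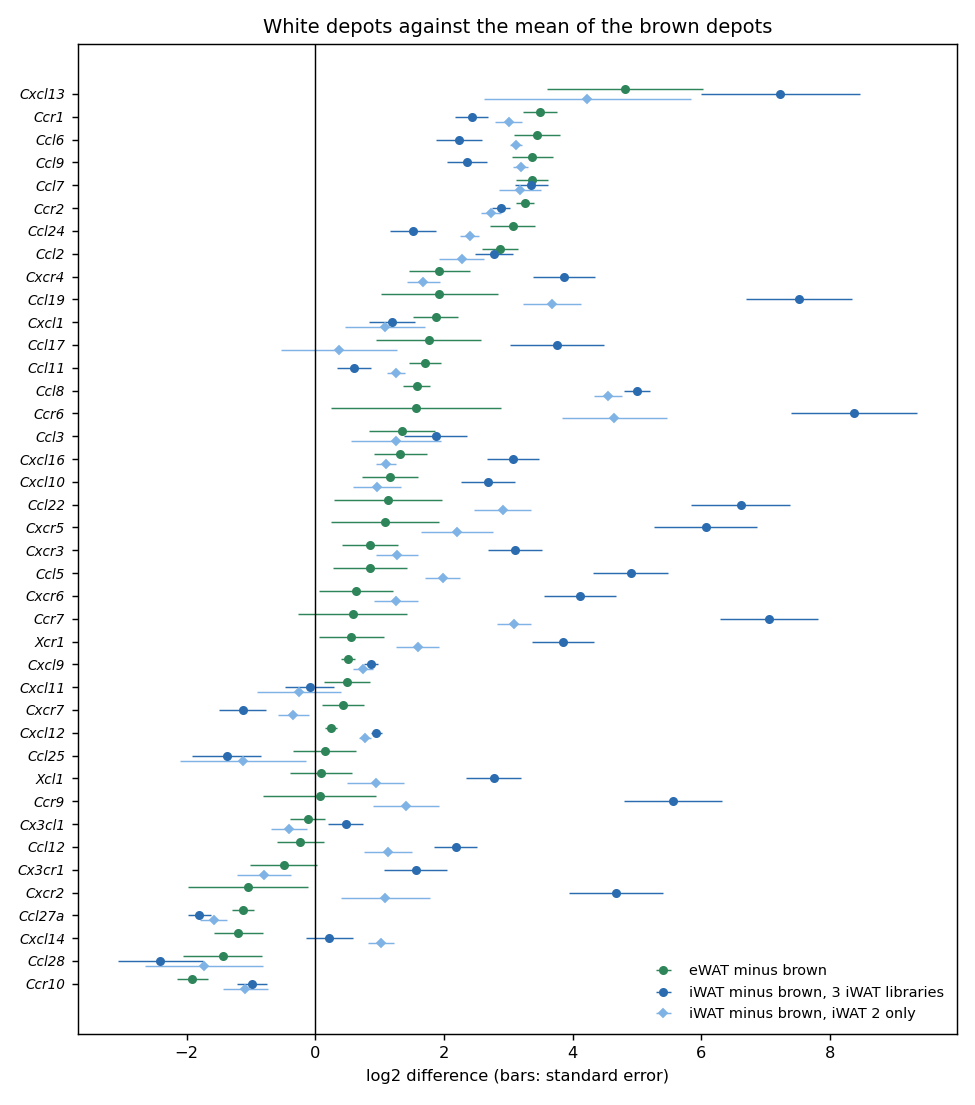
Points are log2 differences of eWAT (green) and of iWAT with 3 libraries (dark blue) or with iWAT 2 alone (light blue) from the mean of the brown depots, with standard errors as bars, for tested members, without Ccr3, which has no count in scBAT, and 1 further member. Ccr7 lies at 7.05 with 3 iWAT libraries and 3.09 with iWAT 2 alone, whereas Ccl8 lies at 5.0 and 4.55.

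Homeostatic ligands of lymphoid tissue rose in iWAT. Of 9 on the list, 6 were tested. Against brown, 5 rose and 1 fell in iWAT, beside 37.8% and 30% of all tested genes, with a median log2 difference of 5.18. In eWAT 2 rose, beside 30.7% of all tested genes, with a median of 1.45. When only the eWAT and brown libraries were fitted, Ccl19, Ccl22, Cxcl12 and Cxcl13 rose in eWAT and Ccl25 was not called. Of all genes tested in that fit, 37.8% rose. Ccl17 did not pass the low-count filter there. With iWAT 2 alone the iWAT median was 1.84. For each gene below, brown values are the lowest, median and highest of 6 libraries, and white values are those of libraries 1, 2 and 3.

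Ccl19, the ligand that draws T cells and dendritic cells through Ccr7, was at 0.191, 0.308 and 0.581 CPM in brown fat, 70.5, 4.67 and 126 CPM in iWAT and 1.81, 1.47 and 0.909 CPM in eWAT. All 3 iWAT libraries were above every other library, and iWAT 1 and 3 were far above iWAT 2. The difference from brown was 7.52 ± 0.82 (adjusted p = 2.19e-05) with all iWAT libraries and 3.68 ± 0.45 (adjusted p = 4.69e-05) with iWAT 2 alone. Against eWAT it was 5.59 ± 0.95 (adjusted p = 0.0049), and with iWAT 2 alone it was 1.76 ± 0.50 and did not pass (adjusted p = 0.0732).

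Cxcl13, the B cell ligand of follicles, was at 0.323, 0.415 and 0.672 CPM in brown fat, 99.6, 8.98 and 107 CPM in iWAT and 0.39, 2.38 and 37.2 CPM in eWAT. The white depots overlapped, since eWAT 3 lay above iWAT 2, and eWAT 1 lay within the brown range. The difference from brown was 7.23 ± 1.24 in iWAT (adjusted p = 0.000424) and 4.81 ± 1.21 in eWAT (adjusted p = 0.00573), and iWAT minus eWAT did not pass (2.43 ± 1.22, adjusted p = 0.142). Without eWAT 3 the eWAT difference was 1.52 and did not pass (adjusted p = 0.223), and with iWAT 2 alone the iWAT difference was 4.23 ± 1.61 (adjusted p = 0.0667) and iWAT minus eWAT -0.54 ± 1.91 (adjusted p = 0.927). B cell markers were also higher in eWAT 3 than in the other eWAT libraries, as given above, and their part in the Cxcl13 value was not tested.

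Ccl22, a dendritic cell ligand of Ccr4, was at 0.392, 0.449 and 0.978 CPM in brown fat, 58.6, 4.36 and 107 CPM in iWAT and 1.42, 1.63 and 0.784 CPM in eWAT. Every iWAT library was above all others (iWAT minus brown 6.61 ± 0.77, adjusted p = 3.19e-05, and 2.91 ± 0.45, adjusted p = 0.000267, with iWAT 2 alone). Ccl17, the other Ccr4 ligand, was at 1.51, 0.132 and 2.60 CPM in iWAT, where iWAT 2 lay within the brown range of 0.0611 to 0.186 CPM. Its difference from brown was 3.75 ± 0.73 (adjusted p = 0.000996), and 0.37 ± 0.90 (adjusted p = 0.766) with iWAT 2 alone.

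Cxcl12, the widely made stromal ligand of Cxcr4 that holds blood progenitors in marrow, behaved otherwise. It was at 152, 165 and 180 CPM in brown fat, 342, 282 and 333 CPM in iWAT and 181, 209 and 195 CPM in eWAT. All iWAT libraries, iWAT 2 among them, lay above all others without overlap. The difference was 0.95 ± 0.09 from brown (adjusted p = 8.88e-06) and 0.71 ± 0.11 from eWAT (adjusted p = 0.00337), and with iWAT 2 alone 0.77 ± 0.09 (adjusted p = 3.20e-05) and 0.55 ± 0.10 (adjusted p = 0.0082). The smaller eWAT minus brown difference of 0.24 ± 0.09 (adjusted p = 0.0439) was lost when any of 9 libraries was left out, most so without eWAT 2, at 0.19 (adjusted p = 0.174). It passed at 0.22 ± 0.06 (adjusted p = 0.00566) when only the eWAT and brown libraries were fitted.

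Tested receptors of lymphocytes other than Ccr10 were highest in iWAT 3 and lowest in iWAT 2 among the iWAT libraries. Of 10 on the list, 8 were tested. Against brown, 7 rose and 1 fell in iWAT, beside 37.8% and 30% of all tested genes. In eWAT 1 rose and 1 fell against brown, beside 30.7% and 28.4% of all tested genes, in the fit that shares its spread with iWAT. In a fit of the eWAT and brown libraries alone, Ccr7, Cxcr3, Cxcr4, Cxcr5 and Cxcr6 rose and Ccr10 fell. Of all genes tested there, 37.8% rose and 36.6% fell. Ccr6 and Ccr9 did not pass the low-count filter there, so their iWAT counts brought them into the tested set. Against eWAT, 8 rose in iWAT, beside 17.7% of all tested genes. The iWAT medians of the 8 were 4.84 against brown and 4.23 against eWAT, and 1.54 and 0.99 with iWAT 2 alone. Ccr7, which brings naive T cells and mature dendritic cells into lymph nodes, was at 0.634, 0.817 and 1.15 CPM in brown fat, 125, 7.17 and 202 CPM in iWAT and 1.35, 1.15 and 1.25 CPM in eWAT. The iWAT libraries lay above all others, by 7.05 ± 0.76 over brown (adjusted p = 1.96e-05) and 6.47 ± 0.96 over eWAT (adjusted p = 0.00322). With iWAT 2 alone these were 3.09 ± 0.26 (adjusted p = 3.31e-06) and 2.53 ± 0.30 (adjusted p = 0.000746).

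Cxcr5, the follicular receptor for Cxcl13, was at 0.761, 1.02 and 1.15 CPM in brown fat, 79.9, 4.53 and 115 CPM in iWAT and 0.958, 1.11 and 4.17 CPM in eWAT. The iWAT libraries did not overlap the others, although eWAT 3 came close to iWAT 2. Its difference from brown was 6.07 ± 0.80 (adjusted p = 7.31e-05), and 2.20 ± 0.56 (adjusted p = 0.00792) with iWAT 2 alone. Ccr6, carried by B cells and some T cells, was at 43.0, 2.46 and 52.3 CPM in iWAT, at most 0.194 CPM in brown fat and at 0.071, 0.0793 and 0.658 CPM in eWAT, a difference from brown of 8.38 ± 0.98 (adjusted p = 3.35e-05), and 4.65 ± 0.82 (adjusted p = 0.000709) with iWAT 2 alone. Its ligand Ccl20 had 0, 1 and 9 counts in iWAT, 0 in each eWAT library and 2 in all of brown fat, and was not tested.

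Ccr9, the thymus and gut homing receptor, was at 22.7, 1.10 and 34.9 CPM in iWAT, 0.355, 0.397 and 0.533 CPM in eWAT and 0.168 to 0.84 CPM in brown fat. Its ratio of iWAT 3 to iWAT 2, 31.7, was the largest of the 39 members with a mean iWAT level of at least 1 CPM. Cxcr4, the receptor of Cxcl12, was at 2.66, 3.69 and 5.28 CPM in brown fat, 50.8, 12.5 and 106 CPM in iWAT and 14.7, 15.8 and 14.0 CPM in eWAT. It rose in both white depots, by 3.86 ± 0.48 in iWAT (adjusted p = 4.94e-05) and 1.93 ± 0.48 in eWAT (adjusted p = 0.00513), while iWAT 2 lay below every eWAT library. The iWAT difference was 1.68 ± 0.26 with iWAT 2 alone (adjusted p = 0.000267).

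Cxcr3, the receptor of interferon-induced ligands on effector T cells, was at 14.4, 3.79 and 22.1 CPM in iWAT, 3.05, 3.37 and 2.07 CPM in eWAT and 1.28 to 2.11 CPM in brown fat (iWAT minus brown 3.10 ± 0.42, adjusted p = 8.57e-05, and 1.27 ± 0.32, adjusted p = 0.00609, with iWAT 2 alone). Cxcr6, another receptor of effector T cells, was at 30.3, 3.65 and 45.4 CPM in iWAT, 2.06, 2.93 and 2.10 CPM in eWAT and 1.27 to 2.36 CPM in brown fat (4.12 ± 0.56, adjusted p = 8.81e-05, and 1.26 ± 0.34, adjusted p = 0.00919, with iWAT 2 alone). For both receptors the iWAT libraries lay above all others. Ccr4 and Ccr8, receptors of helper and regulatory T cells, were not tested. Their counts in iWAT 1, 2 and 3 were 179, 10 and 302 for Ccr4 and 54, 5 and 100 for Ccr8, against at most 10 and 4 counts in any other library.

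**Figure D3:**
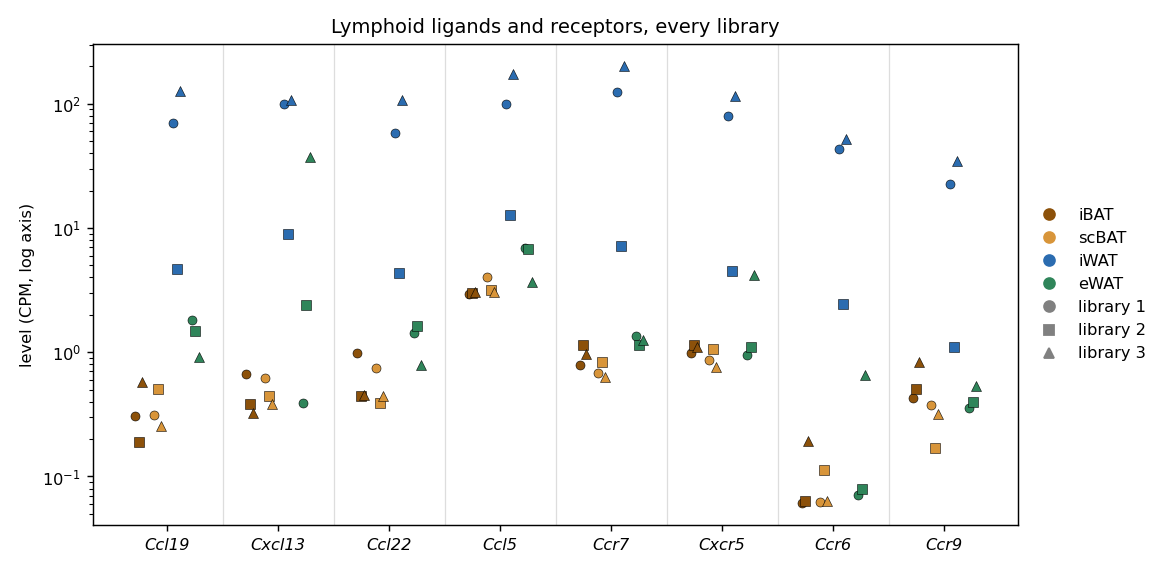
Each point is the level of a gene in 1 library, in CPM on a log axis, with depots by colour and libraries by shape. Every iWAT library lies above all brown libraries, iWAT 2 (blue square) is the lowest of the iWAT libraries throughout, and Cxcl13 in eWAT 3 (green triangle) reaches 37.2 CPM.

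The difference between the white depots depended on the fit. Against eWAT, 22 of the 42 tested members rose in iWAT, where 17.7% of all tested genes did, and 5 fell, where 11% of all did; the median was 1.47 beside 0 for all tested genes. The 5 were Cxcr7 (-1.56 ± 0.40), Ccl24 (-1.55 ± 0.41), Ccl11 (-1.11 ± 0.31), Ccr1 (-1.06 ± 0.30) and Ccl27a (-0.68 ± 0.19), each lost when some library was left out, as were 13 of the 27 calls in all. By libraries that do not overlap, 18 lay higher and 10 lower, where 15.8% and 19% of all tested genes did. In a fit of the white libraries alone 2 rose, namely Ccl8 and Ccr3, and 0 fell, beside 0.327% and 1.1% of all genes tested there. With iWAT 2 as the only iWAT library 4 rose (Ccl8, Ccr7, Cxcl12 and Cxcl14) and 0 fell, beside 3.12% and 2.68% of all genes tested there.

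Ligands of monocytes and eosinophils rose in both white depots. Of 12 on the list, 10 were tested. Of all tested genes, 30.7% rose in eWAT and 37.8% in iWAT against brown. Of the 10 ligands, 8 rose in eWAT and 9 in iWAT, and none fell in either by edgeR. Their median differences were 2.29 in eWAT and 2.30 in iWAT. Macrophage markers rose with them, 10 of 10 tested in each white depot. The sum of those 10 was 199 to 241 CPM in iBAT and 321 to 365 CPM in scBAT. In white fat it was 1470, 1140 and 1470 CPM in iWAT and 1120 to 1220 CPM in eWAT. Lyz2 was the largest part of the iWAT sum, at 858, 430 and 930 CPM. Emr1, Mrc1, Cd163, Mertk and Cd14 were highest in iWAT 2, while Lyz2, Timd4, Csf1r and Cd68 were lowest there. Fcgr1 lay between, at 6.08, 8.63 and 9.25 CPM. The part of these markers in the ligand values was not tested.

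Ccl6, a macrophage and neutrophil ligand of Ccr1, was at 8.07, 16.4 and 27.0 CPM in brown fat, 56.3, 134 and 26.5 CPM in iWAT and 163, 163 and 176 CPM in eWAT. The eWAT libraries were the highest, iWAT 2 followed, and iWAT 3 fell within the brown range. Its difference from brown was 3.45 ± 0.36 in eWAT (adjusted p = 1.58e-05) and 2.23 ± 0.36 in iWAT (adjusted p = 0.000274), and 3.12 ± 0.10 (adjusted p = 6.8e-09) with iWAT 2 alone. Ccl9, its neighbour on chromosome 11 and a Ccr1 ligand too, was at 5.50, 8.70 and 13.6 CPM in brown fat, 34.5, 79.6 and 20.7 CPM in iWAT and 89.4, 87.2 and 93.1 CPM in eWAT, without overlap between white and brown (eWAT minus brown 3.37 ± 0.32, adjusted p = 7.49e-06).

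The eotaxins Ccl11 and Ccl24, which draw eosinophils through Ccr3, had the same order. Ccl11 was at 20.3, 24.9 and 27.5 CPM in brown fat, 32.4, 58.2 and 19.5 CPM in iWAT and 82.2, 79.9 and 75.1 CPM in eWAT. The eWAT libraries lay above all others (eWAT minus brown 1.71 ± 0.25, adjusted p = 0.000189), while iWAT overlapped brown (0.60 ± 0.26, adjusted p = 0.0613, and 1.26 ± 0.14, adjusted p = 1.98e-05, with iWAT 2 alone). Ccl24 was at 1.16, 2.04 and 3.36 CPM in brown fat, 4.29, 10.2 and 2.27 CPM in iWAT and 16.6, 16.8 and 15.6 CPM in eWAT, with eWAT above all others and iWAT 3 inside the brown range (eWAT minus brown 3.07 ± 0.35, adjusted p = 2.85e-05).

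Ccl2 and Ccl7, the monocyte ligands of Ccr2, rose in both white depots. Ccl2 was at 0.444, 0.469 and 0.808 CPM in brown fat, 3.66, 2.73 and 5.14 CPM in iWAT and 3.87, 5.15 and 3.32 CPM in eWAT. Ccl7 was at 0.129, 0.405 and 0.559 CPM in brown fat, 4.01, 3.21 and 3.65 CPM in iWAT and 3.30, 4.24 and 3.45 CPM in eWAT. For both, white and brown libraries were separate and the white depots overlapped: Ccl2 rose by 2.87 ± 0.28 in eWAT and 2.78 ± 0.29 in iWAT (adjusted p = 9.96e-06 and 1.39e-05), and Ccl7 by 3.37 ± 0.25 and 3.36 ± 0.25 (adjusted p = 1.37e-06 and 2.03e-06).

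Ccl8, another member of the monocyte group and in the mouse an agonist of Ccr8, stood high in every iWAT library. It lies on chr11:82115185-82116799 of GRCm38, plus strand, and was at 0.517, 0.889 and 1.62 CPM in brown fat, 29.1, 21.3 and 36.1 CPM in iWAT and 2.13, 2.89 and 3.04 CPM in eWAT. Brown, eWAT and iWAT libraries did not overlap, and iWAT 2 stood close to iWAT 1 and 3. The difference was 5.0 ± 0.20 from brown (adjusted p = 1.42e-07) and 3.42 ± 0.24 from eWAT (adjusted p = 5.83e-05). It remained 3.00 ± 0.25 against eWAT with iWAT 2 alone (adjusted p = 9.64e-05) and 3.43 in the fit of white libraries only (adjusted p = 0.0109).

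Ccl5, made by activated T cells and natural killer cells, was at 2.93, 3.04 and 4.04 CPM in brown fat, 99.7, 12.7 and 174 CPM in iWAT and 6.89, 6.74 and 3.70 CPM in eWAT. Its iWAT libraries were above all others in the order of the T cell markers (iWAT minus brown 4.90 ± 0.58, adjusted p = 3.46e-05, and 1.98 ± 0.27, adjusted p = 0.000122, with iWAT 2 alone). Ccl12 was at 4.18, 2.07 and 6.62 CPM in iWAT, above 0.611 to 1.37 CPM in brown fat and 0.658 to 0.958 CPM in eWAT (iWAT minus eWAT 2.41 ± 0.40, adjusted p = 0.00463). This call was lost with iWAT 2 alone (1.38 ± 0.40, adjusted p = 0.0783) and in the fit of white libraries only (2.42 ± 0.48, adjusted p = 0.0814). Ccl3 stayed at or below 1.19 CPM, with 0.387, 0.44 and 1.19 CPM in iWAT.

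**Figure D4:**
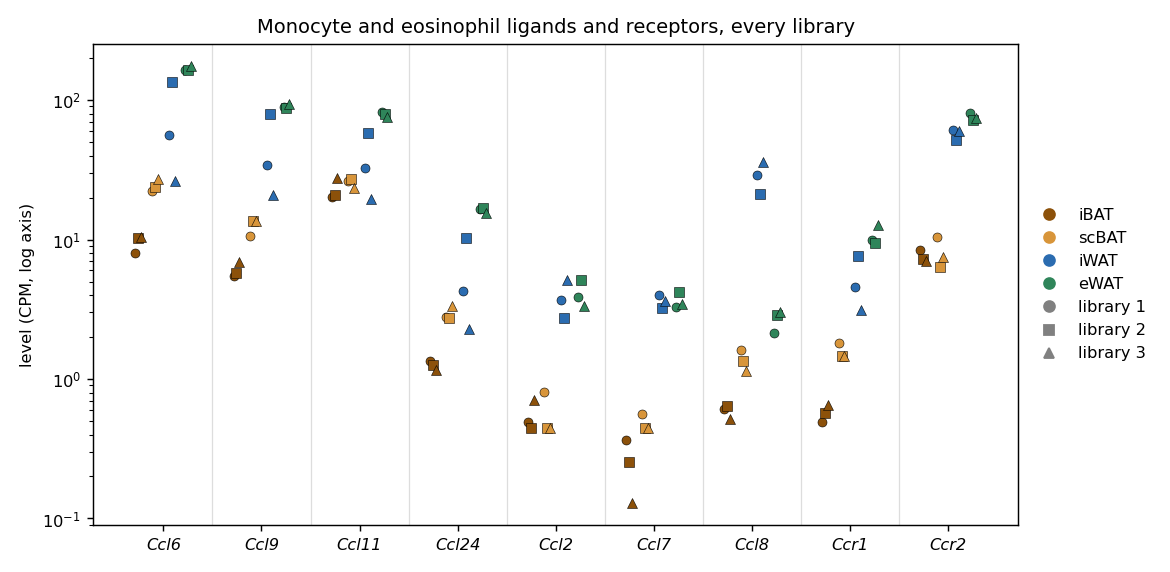
Each point is the level of a gene in 1 library, in CPM on a log axis, with depots by colour and libraries by shape. Ccl6, Ccl9, Ccl11, Ccl24 and Ccr1 are highest in eWAT (green) and next in iWAT 2 (blue square), Ccl2 and Ccl7 overlap between the white depots, Ccr2 is higher in eWAT than in iWAT, and Ccl8 is at 21.3 to 36.1 CPM in iWAT against 2.13 to 3.04 CPM in eWAT.

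All 7 tested receptors of the myeloid list rose in iWAT against brown, beside 37.8% of all tested genes. Ccr3 and Cxcr2 did not pass the low-count filter in a fit of the eWAT and brown libraries alone. Their high iWAT counts brought them into the tested set, which favours a rise in iWAT. In eWAT 4 rose, beside 30.7% of all tested genes. The iWAT median of the 7 was 2.89, and 1.61 with iWAT 2 alone. Ccr2, the receptor that brings monocytes out of the marrow, was at 6.39, 7.41 and 10.5 CPM in brown fat, 61.5, 52.1 and 60.3 CPM in iWAT and 81.2, 71.4 and 73.8 CPM in eWAT. Every white library lay above every brown one, and eWAT above iWAT (eWAT minus brown 3.26 ± 0.14, adjusted p = 6.54e-08; iWAT minus brown 2.89 ± 0.14, adjusted p = 2.49e-07). The difference between the white depots, iWAT minus eWAT, was -0.38 ± 0.16 and did not pass (adjusted p = 0.0888).

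Ccr1, the receptor for Ccl6 and Ccl9, was at 0.489, 1.05 and 1.8 CPM in brown fat, 4.57, 7.66 and 3.13 CPM in iWAT and 9.87, 9.40 and 12.8 CPM in eWAT, the same order as its ligands (eWAT minus brown 3.49 ± 0.26, adjusted p = 1.74e-06). White and brown libraries were separate, and eWAT lay above iWAT.

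Ccr3, the eosinophil receptor for Ccl11 and Ccl24, was low, at 1.05, 0.748 and 0.889 CPM in iWAT and 0.177, 0.238 and 0.125 CPM in eWAT. It had 5 counts in the iBAT libraries together and 0 in scBAT. Against the floor of 3 counts over the depot, its iWAT level was at least 15-fold higher than that of scBAT, which covers counting error only. The iWAT libraries lay above all others although Ccl11 and Ccl24 were higher in eWAT; iWAT minus eWAT was 2.30 ± 0.53 (adjusted p = 0.0178), and did not pass without iWAT 1 (adjusted p = 0.0735), without any of the eWAT libraries (0.0568 to 0.0783), or with iWAT 2 alone (2.05 ± 0.89, adjusted p = 0.257).

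Xcr1, carried by cross-presenting dendritic cells, was at 19.4, 3.35 and 25.1 CPM in iWAT, 1.92, 1.82 and 1.16 CPM in eWAT and 0.784 to 1.30 CPM in brown fat (iWAT minus brown 3.85 ± 0.48, adjusted p = 5.02e-05, and 1.59 ± 0.34, adjusted p = 0.00257, with iWAT 2 alone). Its ligand Xcl1 was at 4.47, 1.10 and 6.16 CPM in iWAT, 0.555 to 0.69 CPM in eWAT and 0.306 to 0.932 CPM in brown fat, with the same order of libraries. The sum of 6 dendritic cell markers was 277, 106 and 408 CPM in iWAT, 105 to 117 CPM in eWAT and 51.6 to 79.6 CPM in brown fat. Fscn1 was its largest part in iWAT, at 159, 56.8 and 251 CPM. Flt3, Itgax and Cd209a were also higher in every white library than in brown fat. Clec9a overlapped between eWAT (6.0 to 6.5 CPM) and brown fat (3.87 to 6.37 CPM). Zbtb46 was higher in brown fat (20.5 to 25.1 CPM) than in white (14.8 to 19.2 CPM). The part of these markers in the Xcr1 and Xcl1 values was not tested.

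Cx3cr1, a receptor of resident macrophages and patrolling monocytes, was at 2.97, 3.51 and 6.83 CPM in brown fat, 13.4, 2.42 and 20.9 CPM in iWAT and 2.98, 2.86 and 3.04 CPM in eWAT. Library iWAT 2 was the lowest of the 12 while iWAT 1 and 3 were the highest, and the difference from brown was 1.56 ± 0.49 (adjusted p = 0.0153). It was 0.93 without iWAT 3 (adjusted p = 0.122) and -0.79 ± 0.42 without iWAT 1 and 3 (adjusted p = 0.141). Its membrane-bound ligand Cx3cl1 was at 8.47, 4.31 and 11 CPM in iWAT, 4.79, 4.16 and 6.80 CPM in eWAT and 5.07 to 6.60 CPM in brown fat, with no call in any comparison.

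Neutrophil ligands were scarce. Cxcl1 was the only 1 of 4 tested, at 0.112, 0.185 and 0.317 CPM in brown fat, 0.563, 0.396 and 0.329 CPM in iWAT and 0.568, 0.912 and 0.596 CPM in eWAT (eWAT minus brown 1.87 ± 0.35, adjusted p = 0.000841). Cxcl2, Cxcl3 and Cxcl5 had at most 9, 2 and 8 counts in any library. Their receptor Cxcr2 was nevertheless at 14.5, 0.968 and 19.7 CPM in iWAT, at most 0.317 CPM in eWAT and at 0.168 to 0.856 CPM in brown fat (iWAT minus brown 4.68 ± 0.73, adjusted p = 0.00023), and the call was lost with iWAT 2 alone (1.09 ± 0.69, adjusted p = 0.214). The sum of 6 neutrophil markers was 84.0, 13.5 and 75.3 CPM in iWAT, 8.31 to 9.48 CPM in eWAT and 3.62 to 7.52 CPM in brown fat. S100a8 and S100a9 were its largest parts in iWAT 1 and 3. Elane of the list was instead highest in iWAT 2, at 2.0, 3.26 and 1.32 CPM in iWAT and 2.34 to 2.89 CPM in eWAT. The part of these markers in the Cxcr2 value was not tested.

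Among the interferon-induced ligands of Cxcr3, Cxcl9 and Cxcl10 rose in both white depots against brown and Cxcl11 passed in none. Cxcl9 was at 32.2, 44.1 and 53.4 CPM in brown fat, 74.9, 71.4 and 85.8 CPM in iWAT and 64.3, 67.3 and 51.2 CPM in eWAT. The iWAT libraries lay above all others and were close to each other (iWAT minus brown 0.86 ± 0.11, adjusted p = 6.02e-05), and eWAT 3 fell within the brown range. Cxcl10 was at 1.1, 2.29 and 3.17 CPM in brown fat, 16.8, 4.45 and 22.8 CPM in iWAT and 5.04, 4.96 and 5.33 CPM in eWAT, so that iWAT 2 lay just below eWAT (iWAT minus brown 2.69 ± 0.42, adjusted p = 0.000236). With iWAT 2 alone that call was lost (0.96 ± 0.37, adjusted p = 0.0504). Its eWAT difference from brown, 1.16 ± 0.43 (adjusted p = 0.0373), missed the threshold when any of 8 libraries was left out, with adjusted p of 0.0535 to 0.093. With only the eWAT and brown libraries fitted it passed, at 1.15 ± 0.24 (adjusted p = 0.00124).

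Some members were higher in brown than in white fat. Ccl27a, the skin ligand of Ccr10, was at 7.56, 10.4 and 12.7 CPM in brown fat, 3.20, 3.43 and 2.21 CPM in iWAT and 4.76, 4.48 and 4.86 CPM in eWAT. Ccr10 itself was at 5.16, 7.33 and 8.53 CPM in brown fat, 4.01, 3.26 and 3.26 CPM in iWAT and 2.06, 2.10 and 1.35 CPM in eWAT. Brown and white libraries were separate for both genes: Ccl27a fell by 1.8 ± 0.18 in iWAT and 1.13 ± 0.17 in eWAT on the log2 scale (adjusted p = 1.19e-05 and 0.000226), and Ccr10 fell by 0.98 ± 0.23 and 1.91 ± 0.24 (adjusted p = 0.00302 and 5.56e-05).

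Ccl28, the mucosal ligand of Ccr10, was at 1.71, 1.91 and 1.74 CPM in iBAT, 5.65, 12.7 and 2.35 CPM in scBAT, 0.176, 1.06 and 0.757 CPM in iWAT and 0.639, 2.02 and 1.22 CPM in eWAT. The scBAT libraries were highest and spread widely, with scBAT 2 at the top. Markers of surface epithelium summed to 12.1, 18.1 and 5.96 CPM in the same scBAT libraries and 3.79 to 6.07 CPM in iBAT, and their part in the Ccl28 values was not tested. Ccl25, the ligand of Ccr9, was at 5.03, 6.01 and 7.29 CPM in brown fat, 2.22, 2.77 and 2.01 CPM in iWAT and 2.73, 2.42 and 15.1 CPM in eWAT, where eWAT 3 was the highest of the 12. Its fall in iWAT, by 1.38 ± 0.54 (adjusted p = 0.0411), missed the threshold when any of 8 libraries was left out (adjusted p = 0.0538 to 0.109). With iWAT 2 alone the difference was -1.13 ± 0.98. With only the iWAT and brown libraries fitted it was -1.37 ± 0.20 and passed (adjusted p = 0.000508).

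Cxcl14, a ligand of epithelium, fibroblasts and adipocytes, was at 8.75, 11.9 and 16.6 CPM in brown fat, 12.4, 24.7 and 5.46 CPM in iWAT and 5.54, 5.35 and 4.95 CPM in eWAT. Its eWAT libraries were below all brown ones, while iWAT 2 was the highest of the 12 and iWAT 3 among the lowest. The eWAT minus brown difference was -1.20 ± 0.38 (adjusted p = 0.0191), and adjusted p was 0.0556 to 0.0698 without any of the eWAT libraries. Fitted with the eWAT and brown libraries alone, it was -1.21 ± 0.16 (adjusted p = 2.57e-05). Cxcr7, a scavenging receptor of Cxcl12 now named Ackr3, was at 52.0, 75.3 and 83.5 CPM in brown fat, 27.6, 56.1 and 13.8 CPM in iWAT and 99.7, 91.2 and 96.8 CPM in eWAT. Its eWAT libraries lay above and iWAT 1 and 3 below all brown ones. The eWAT minus brown difference was 0.43 ± 0.33 and did not pass (adjusted p = 0.287). Fitted with the eWAT and brown libraries alone, it was 0.42 ± 0.15 and passed (adjusted p = 0.0317). The iWAT minus brown difference was -1.13 ± 0.36 (adjusted p = 0.016). It was -0.34 ± 0.24 with iWAT 2 alone, and -1.03 without iWAT 1, where it did not pass (adjusted p = 0.0651). Cxcl16, the transmembrane ligand of Cxcr6, was at 44.9, 11.1 and 74.5 CPM in iWAT, 14.0, 11.9 and 13.1 CPM in eWAT and 4.52 to 6.33 CPM in brown fat, higher in every white library (iWAT minus brown 3.07 ± 0.40, adjusted p = 7.11e-05, and 1.10 ± 0.16, adjusted p = 0.000169, with iWAT 2 alone).

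The order of the inguinal libraries divided the members. Among the 39 with a mean iWAT level of at least 1 CPM, iWAT 2 was the lowest in 30 (76.9%) and the highest in 9 (23.1%), beside 47.5% and 46.9% of 13546 genes at that level. The 9 were Ccl6, Ccl9, Ccl11, Ccl24, Ccl25, Ccl27a, Ccr1, Cxcl14 and Cxcr7. Adipocyte markers, summing to 5980, 10100 and 3700 CPM, had the order of these 9. So did fibroblast and progenitor markers, summing to 3110, 5890 and 1830 CPM. Dpp4 of that list ran the other way, at 77.9, 32.3 and 121 CPM. The macrophage markers Emr1, Mrc1, Cd163, Mertk and Cd14 had the order of the 9 too, with Mertk at 31.0, 38.7 and 24.7 CPM and Cd163 at 67.3, 160 and 25.5 CPM. Of the same list Lyz2, Timd4, Csf1r and Cd68 were lowest in iWAT 2, and Fcgr1 was highest in iWAT 3. Of the 30, Ccl7, Ccl8, Ccr2, Ccr10, Cxcl9 and Cxcl12 were among those at most 1.7 times as high in iWAT 1 or 3 as in iWAT 2. The part of the cell makeup of the libraries in this order was not tested.

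**Figure D5:**
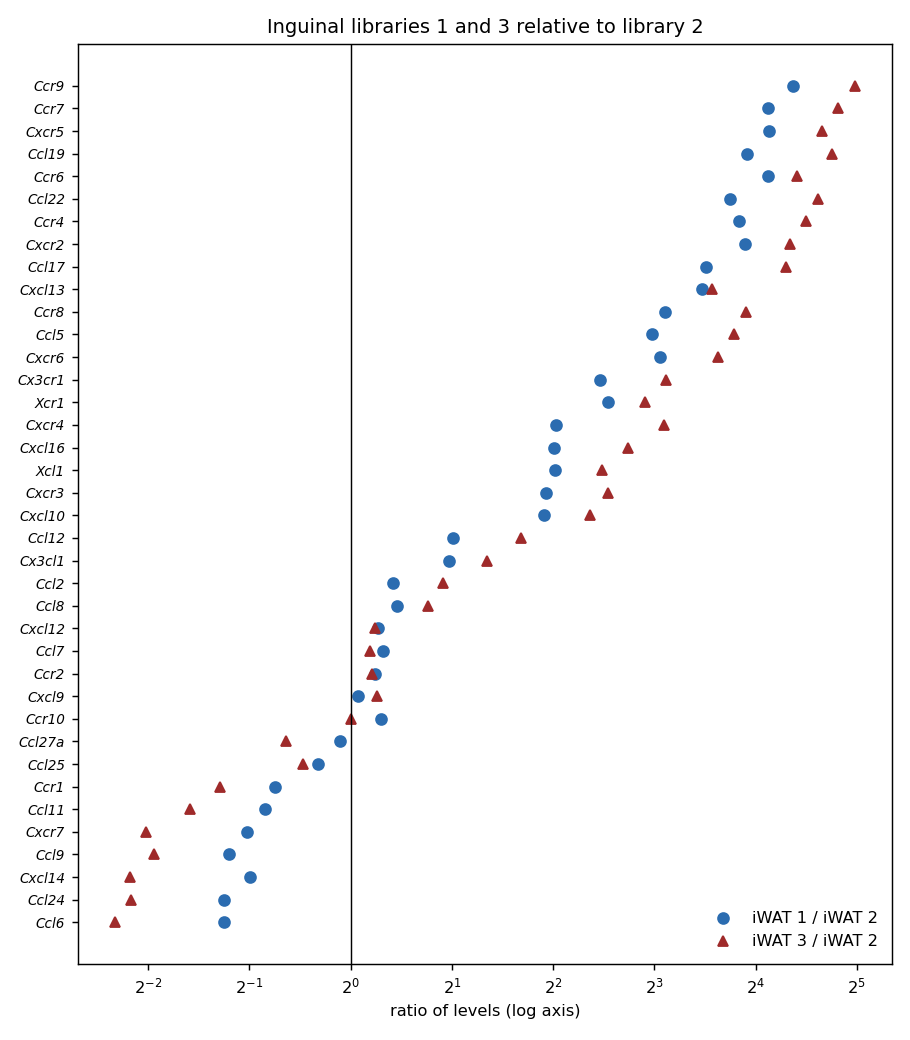
Each row is a member with a mean iWAT level of at least 1 CPM (1 such member is not drawn), and points give the ratio of its level in iWAT 1 (circles) or iWAT 3 (triangles) to that in iWAT 2 on a log axis. Ratios run from 0.199 for Ccl6 to 31.7 for Ccr9 in iWAT 3, and 30 of the 39 members have iWAT 2 as the lowest library.

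The brown depots did not differ in any tested member by edgeR, where 0.235% of all tested genes were called higher and 0.094% lower in scBAT. DESeq2 and limma-voom also called 0, the smallest adjusted p of edgeR was 0.179, for Ccl8, and 8 members had an unadjusted p under 0.05. Ccl6 was at 8.07, 10.3 and 10.5 CPM in iBAT and 22.4, 24.0 and 27.0 CPM in scBAT, Ccl9 at 5.50, 5.80 and 6.85 against 10.6, 13.6 and 13.6 CPM, and Ccr1 at 0.489, 0.573 and 0.646 against 1.8, 1.46 and 1.46 CPM. For each of these the scBAT libraries lay above the iBAT ones, as they did for 11 of the 42 tested members, and 3 lay wholly below, beside 10% and 6.77% of all tested genes. In a fit of the brown libraries alone 3 members were higher in scBAT: Ccl6 by 1.35 ± 0.13 (adjusted p = 0.00235), Ccl9 by 1.05 ± 0.15 (adjusted p = 0.0165) and Ccl24 by 1.22 ± 0.21 (adjusted p = 0.0349). In that fit 0.941% of all genes tested were higher and 0.2% lower in scBAT. The macrophage marker sum was also higher in scBAT, as given above, and its part was not tested.

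Per kilobase of exon, which allows genes to be compared, the leading members changed with the depot. In iBAT the highest mean levels were those of Cxcl12 at 23.7, Cxcr7 at 21.9, Ccl11 at 21.2 and Cxcl9 at 17.4 CPM per kb. In eWAT Ccl6 led at 116.0 CPM per kb, followed by Ccl11 at 73.1 and Ccl9 at 29.9. In iWAT 2 the order was Ccl6 at 93.1, Ccl11 at 53.9, Ccl8 at 41.8 and Cxcl12 at 39.4 CPM per kb. The mean of the 3 iWAT libraries instead had Ccl5 at 180.0, Ccl19 at 80.8 and Cxcl13 at 62.5 CPM per kb, values in which iWAT 1 and 3 weigh most.

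Other genes of the chemokine system were followed as lists, whose counts stand beside 37.8% of all tested genes higher and 30% lower in iWAT against brown, 30.7% and 28.4% in eWAT against brown, and 17.7% and 11% in iWAT against eWAT. Of 8 tested atypical receptors and related genes outside the rule, 6 rose in each white depot against brown and 2 rose in iWAT against eWAT. Darc, the erythrocyte and venule receptor that binds chemokines without signalling, was at 11.8, 13.3 and 11.1 CPM in iWAT, 8.48, 7.53 and 6.65 CPM in eWAT and 2.65 to 4.12 CPM in brown fat. Pf4, a platelet and macrophage ligand, was at 12.9, 30.5 and 6.42 CPM in iWAT and 35.2 to 37.0 CPM in eWAT, the order seen for Ccl6.

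Of 18 genes of chemokine receptor signalling, 16 rose and 1 fell in iWAT against brown, 9 rose and 1 fell in eWAT, and 11 rose in iWAT against eWAT. Library iWAT 2 lay above every eWAT library for Adrbk1, Grk5, Pik3cg, Pik3r5, Rac2, Prex1, Rgs1 and Plcb2. For the other genes of the list it lay within or below the eWAT range. Dock2, the Rac activator that drives lymphocyte migration, was at 182, 32.7 and 269 CPM in iWAT, 27.8, 30.9 and 32.7 CPM in eWAT and 3.91 to 6.40 CPM in brown fat. Gnai1, an inhibitory G protein subunit, had the opposite order in iWAT, at 170.0, 298 and 78.7 CPM, against 352, 369 and 352 CPM in eWAT.

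The lymphotoxin path induces the homeostatic ligands in lymphoid stroma through Ltbr and the kinase encoded by Map3k14. Of its 8 tested genes, 6 rose in iWAT and 3 in eWAT against brown, and 7 rose and 1 fell in iWAT against eWAT. The eWAT count is close to the 30.7% of all tested genes. Library iWAT 2 lay above every eWAT library for Lta, Ltb, Tnfsf14 and Tnfrsf11a. It lay within the eWAT range for Map3k14 and Relb and below it for Nfkb2 and Ltbr. Calls of this list were not followed in the alternative fits. Ltb, the membrane lymphotoxin of lymphocytes, was at 174, 10.6 and 251 CPM in iWAT, 2.56, 2.74 and 4.23 CPM in eWAT and 1.06 to 1.8 CPM in brown fat. Its receptor gene Ltbr was at 55.9, 93.0 and 37.2 CPM in iWAT, 120.0, 115 and 107 CPM in eWAT and 66.1 to 74.4 CPM in brown fat, the 1 gene of the list that fell against eWAT (-0.88 ± 0.25, adjusted p = 0.0283).

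The remaining untested members had few counts. Ccl4, a ligand of macrophages and T cells, had 20, 7 and 47 counts in iWAT, 8 to 11 in each eWAT library and 2 to 6 in each brown one. Cxcl17, a mucosal ligand, had 14, 36 and 0 counts in scBAT and at most 5 in any other library, with the libraries in the order of Ccl28. Ccl1, Ccl26, Ccr1l1 and Cxcr1 had at most 7 counts in any library, and Ccl27b, like the Ccl21 genes, had none.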

How the data were processed

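Whole-tissue RNA of 4 fat depots was sequenced from TruSeq libraries, 3 per depot, per the labels' protocols. The authors deposited raw counts, whole numbers of reads per gene symbol and library, with no normalization. The submitters' processing notes list STAR 2.4.2a, HTSeq 0.6.1p1, bcl2fastq 1.8.3, Picard 1.119, edgeR and build mm10 without their roles. Annotation, strand setting and the counting of reads that match several genes are not given in the sources used here. If strand was ignored in counting, reads of a member and of an opposite-strand gene cannot be told apart where their exons overlap. Such overlaps cover 20.5% of exonic bases in Cxcl16 (with Zmynd15), 18.7% in Xcl1 (with Gm20743) and 8.8% in Cxcl10 (with Art3).

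The table has 0 further sample columns, and no pair of libraries has identical counts. Genes were filtered with filterByExpr (minimum count 10, minimum total 15), scaled with TMM and fitted in R 4.3.3 with edgeR 4.0.16 (glmQLFit and glmQLFTest, robust), with a mean per depot over all 12 libraries. Brown means the average of the iBAT and scBAT means. The standard error is the log2 difference divided by the root of F. The test was tried on simulated data. Alternatives were DESeq2 size factors and upper quartile scaling in edgeR, no filter, DESeq2 1.42.0, voom of limma 3.58.1, only the depots compared, a replicate block, each library left out, and iWAT 1 and 3 left out. A further one, iWAT 1 and 3 and eWAT 3 left out together, was chosen after seeing the data. Exon lengths, positions and shared 50-base words come from GENCODE (57 of 58 members matched) and promoter windows from RefSeq (42 of 58).

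The members and lists were chosen with earlier results of these data known. Genes named with values are members averaging 10 CPM or more in a depot, up to 6 called members per contrast and direction, their known partners, up to 3 genes per other list, and other members added for the value in each iWAT library. Values of 1 tested member are not reported here, although counts, medians and sums over members include it.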

Additional observations from a re-analysis of the deposited data

How the results depend on the processing

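DESeq2 size factors and upper quartile scaling inside edgeR ended no call of a member in eWAT minus brown, iWAT minus brown or iWAT minus eWAT. Upper quartile scaling moved the median of all genes in eWAT minus brown from 0.05 to 0.14. Higher and lower calls without any 1 library ran from 15 to 27 and 2 to 4 in eWAT minus brown, 32 to 37 and 3 to 5 in iWAT minus brown, 15 to 28 and 0 to 7 in iWAT minus eWAT, and 0 to 4 and 0 to 0 in scBAT minus iBAT. The extremes were 15 without eWAT 3 and 27 without iWAT 2 in eWAT minus brown, 3 lower without iWAT 1 in iWAT minus brown, 4 without iWAT 2 in scBAT minus iBAT, and 15 higher and 0 lower without iWAT 1 and 28 and 7 without iWAT 2 in iWAT minus eWAT. There, lower calls also went to 0 without eWAT 1 or eWAT 3, 1 without eWAT 2 and 3 without iWAT 3. For iWAT against eWAT, 22 higher and 5 lower became 9 and 8 with limma-voom, 22 and 9 with the DESeq2 Wald test, 2 and 0 with only the depots compared, 4 and 0 without iWAT 1 and 3, and 7 and 0 without eWAT 3 as well. The 5 lower in iWAT minus brown became 2 and 3 in the last of these. In scBAT minus iBAT, 0 higher became 3 with only the depots compared, 5 without iWAT 1 and 3, and 4 higher and 1 lower without eWAT 3 as well. Without iWAT 1 and 3, and without eWAT 3 as well, Cx3cr1 reversed in iWAT minus brown (-0.79 and -0.78), and in iWAT minus eWAT so did Cx3cr1 (-0.27 and -0.26), Cxcl10 (-0.18 and -0.16), Cxcl16 (-0.20 and -0.21) and Cxcr4 (-0.23 and -0.28). The cause was not tested. Whether replicate numbers pair the libraries could not be decided, since deviations from the means of 3 libraries per depot are too few for that. Of the same-numbered pairs, 5 of 18 had a correlation of deviations over 0.1 (-0.18 to 0.23), beside 8 of 36 other pairs. Of the 12 libraries, 5 correlated best with their own number. With a replicate block, higher and lower calls were 17 and 4 in eWAT minus brown, 33 and 5 in iWAT minus brown, 19 and 5 in iWAT minus eWAT and 0 and 0 in scBAT minus iBAT. Depth limits members under about 1 CPM.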

Other observations

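Further cell type lists are given by their values. Mesothelial markers, 8 genes of the lining of the abdominal cavity, summed to 532, 421 and 583 CPM in eWAT. They summed to at most 27.8 CPM in any other library. All 8 rose in eWAT against brown, beside 30.7% of all tested genes. Lymphatic vessel markers summed to 137, 81.0 and 121 CPM in iWAT, 139, 160 and 149 CPM in eWAT and 26.3 to 37.8 CPM in brown fat. Of the 6 genes, 6 rose in iWAT and 4 in eWAT, beside 37.8% and 30.7% of all tested genes. Markers of lymph node stroma and high endothelium summed to 563, 359 and 621 CPM in iWAT, 515, 402 and 487 CPM in eWAT and 97.1 to 112 CPM in brown fat. Most of that sum was Mfge8, at 394, 337 and 401 CPM in iWAT and 457, 348 and 430.0 CPM in eWAT, and the other 8 genes summed to 169, 21.8 and 220.0 CPM in iWAT, 57.8, 53.5 and 57.7 CPM in eWAT and 1.46 to 4.59 CPM in brown fat. Glycam1 and Chst4 of that list differed: Glycam1 was near 0 in eWAT, while Chst4, a sulfotransferase of high endothelium, was at 7.24, 0.44 and 9.81 CPM in iWAT, 19.1, 13.0 and 15.3 CPM in eWAT and 0 in every brown library. Skeletal muscle markers ran from 390 to 4690 CPM in brown fat and from 52.0 to 207 CPM in white fat. Surface epithelium markers summed to 41.3, 21.7 and 76.6 CPM in eWAT. The highest, eWAT 3, also had the highest Ccl25 and Cxcl13 of that depot. The peak of the sum in eWAT 3 came from Epcam, at 0.639, 1.11 and 48.9 CPM in eWAT 1, 2 and 3. Krt14, Krt10 and Trp63 of the same list were highest in eWAT 1 instead, and Krt5 and Krt1 were near 0. The part of these markers in the Ccl25 and Cxcl13 values was not tested.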
